A study of Mus musculus with 16 samples.

Results

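The NF-κB and TNF receptor superfamily module is a list of 41 genes of 1 signalling system: the 5 NF-κB subunits, 6 members of the IκB family, 12 kinases and adaptors, 5 ubiquitin ligases and brakes, 8 receptors and 5 ligands. The genes were taken by symbol from 2 deposited expression tables. Of the 41, 40 were measured in both tables, among 11171 genes in conventional CD4+ T cells (Tcon, CD4+ FOXP3-) and 11067 in regulatory T cells (Treg, CD4+ FOXP3+), and Tnfrsf26 was not analysed here. RNA came from spleen and lymph node cells of B6.Cg-Foxp3tm2Tch/J mice, in which a GFP reporter (FOXP3-IRES-GFP) follows Foxp3, with WT given as the genotype. All 4 groups carry that reporter: Tcon of vehicle mice, Tcon of venetoclax mice, Treg of vehicle mice and Treg of venetoclax mice, with 4 libraries each. Treatment lasted 14 days at 50 mg/kg venetoclax, which blocks the anti-apoptotic protein BCL-2, or with vehicle. The labels call the libraries of a group biological replicates and give no age or sex, nor whether a library pools mice. Each replicate code (vehicle or venetoclax, 1 to 4) names 1 Tcon and 1 Treg library.

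NF-κB factors are dimers that IκB proteins hold in the cytoplasm. In the canonical route, antigen receptor or TNF receptor signals activate the IKK complex, which marks IκB for destruction. In the non-canonical route, receptors such as OX40 and CD40 stabilise the kinase NIK, and the NFKB2 precursor is processed to a partner of RELB. Treg cells depend on c-REL and RELA for their development and identity, and they carry OX40, GITR, CD137 and TNFR2 at their surface.

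The sorted populations matched their labels. Foxp3, the factor that defines Treg cells, had normalized read counts of 648.5 to 761 in the 8 Tcon libraries and of 18020 to 21550 in the 8 Treg libraries, where a normalized read count is reads divided by 1 size factor per library. Tcon libraries held 22982210 to 24960570 reads each, and Treg libraries 21335006 to 25027038. Vehicle replicates 2 and 4 stood above the other libraries in the summed level of 30 immediate early genes in both subsets, as given beside Tnfaip3 below. Cell cycle genes passed the test in Tcon (13 of 16 higher, against 3.92% of all genes). In Treg 1 of the 16 passed higher and 1 lower, against 10.7% and 8.81% of all genes. Reads of the Y-linked gene Ddx3y were present in vehicle replicate 2 and venetoclax replicates 1, 2 and 3 of both subsets, and at most 1 in the other codes. In Tcon its normalized count was 5664 in vehicle replicate 2 and 1468, 6674 and 3050 in venetoclax replicates 1, 2 and 3. In Treg these were 5326 and 1695, 5539 and 2872. Of 8 lists of markers of other cells, summed levels of vehicle and venetoclax libraries overlapped in Tcon for every list. In Treg they did not overlap for plasma cell markers (98.6 to 121 against 122 to 149 CPM), dendritic cell markers (36.4 to 57.1 against 62.4 to 77.4 CPM) and stroma and endothelium markers (206 to 250 against 168 to 190 CPM). Of these lists 3 of 5, 3 of 8 and 2 of 7 markers were measured in Treg. Over all lists, 3 of 26 measured markers passed in Treg, against 19.6% of all genes: Prdm1 and Cd74 higher and Pecam1 lower. Whether other cells carried these 3 genes was not tested. B cell markers, of which 3 of 8 were measured in each subset, summed to between 14.6 and 21.1 CPM in Treg and between 2.31 and 4.77 CPM in Tcon. Only 2 of the 8 were measured in both subsets, so the sums do not cover the same genes. Results with Ddx3y as a covariate, without vehicle replicates 2 and 4, and without venetoclax replicates 1 and 3 are given below. The part of the cell cycle genes, of the markers and of the immediate early level itself in the results was not tested.

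Several members, Nfkbia and Tnfaip3 among them, are known as targets of NF-κB itself. The decameric κB consensus was searched on both strands in the 250 bases before the start of each RefSeq promoter entry of GRCm38.p6. Overlapping matches were counted. Of 34 members with an entry, 13 held a match (38.2%), against 915 of 8710 measured genes (10.5%) and 2382 of 32851 promoters in all (7.25%). Of the 14 members that passed the test of the drug in either subset 12 had an entry, and 6 of these held a match (Nfkb2, Nfkbia, Nfkbie, Traf3, Tnfaip3 and Tnfrsf9), as did 7 of the 22 with an entry among the other 26 (Rel, Nfkbid, Bcl10, Tnip1, Cyld, Tnfrsf25 and Ltb). The lines below show 4 members that passed in Treg and, for comparison, Rel and Tnip1, which did not, with the match in capitals and the letters 5′ to 3′ on the gene's strand. They lie at chr12:55492648-55492696 (Nfkbia, minus strand), chr17:45555574-45555623 (Nfkbie, plus), chr12:111166340-111166369 (Traf3, plus), chr10:19015411-19015555 (Tnfaip3, minus), chr11:23771031-23771081 (Rel, minus) and chr11:54962967-54963018 (Tnip1, minus).
Nfkbia: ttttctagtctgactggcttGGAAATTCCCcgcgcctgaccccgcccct
Nfkbie: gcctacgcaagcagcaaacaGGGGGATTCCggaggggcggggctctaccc
Traf3: cgcgcgcccaggcggcccgcGGGGATTTCC
Tnfaip3: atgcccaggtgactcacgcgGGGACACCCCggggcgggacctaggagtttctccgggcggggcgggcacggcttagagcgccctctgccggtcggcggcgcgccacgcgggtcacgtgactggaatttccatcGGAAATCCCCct
Rel: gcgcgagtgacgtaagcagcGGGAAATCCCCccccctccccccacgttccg
Tnip1: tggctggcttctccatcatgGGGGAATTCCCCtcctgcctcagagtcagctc
The stretch of Tnfaip3 holds 2 matches, which begin 125 and 12 bases before its start, and those of Rel and Tnip1 hold overlapping ones. A promoter entry can start inside its gene: the stretch of Traf3 lies within the annotated gene, which begins at 111166321. A match of letters describes the sequence and is not a measured binding site.

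In vehicle mice the module was higher in Treg than in Tcon for most members. Levels here are CPM, reads scaled to the total over the 10774 genes of both tables, set side by side with no test because the tables were normalized separately. For 22 of 40 members (55%) every Treg library lay above every Tcon library, against 24.5% of all genes, and for 3 members (7.5%) every Treg library lay below, against 12%. The remaining 15 overlapped. In bulk samples, fewer cells of a type and less RNA per cell cannot be told apart.

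**Figure D1:**
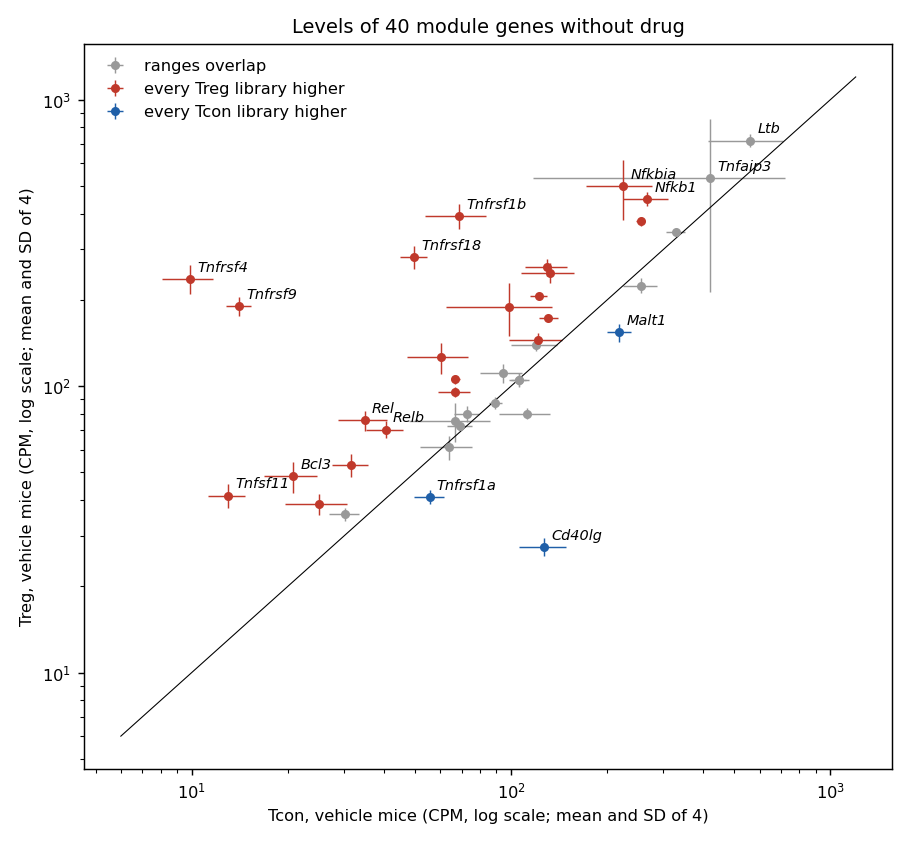
Level of each of the 40 measured members in vehicle mice, Tcon on the x axis and Treg on the y axis, both in CPM on log scales. Points are means of 4 libraries, bars are SD, and the line marks equal levels. Red points are the 22 members whose Treg libraries all exceed the Tcon libraries, led by Tnfrsf4 and Tnfrsf9. Blue points are Malt1, Tnfrsf1a and Cd40lg, which lie the other way.

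The receptors held the widest gaps. Tnfrsf4, which encodes OX40, a co-stimulatory receptor of activated T cells, stood at 256, 196, 248 and 248 CPM in the vehicle Treg libraries and at 8, 11.2, 8.71 and 11.6 CPM in the vehicle Tcon libraries. Its Treg mean was 24.0-fold the Tcon mean (237 ± 27.8 against 9.87 ± 1.78 CPM, SD, n = 4 per group). Tnfrsf9, which encodes CD137, stood at 195, 169.6, 193 and 202 CPM in Treg and at 15.6, 13.6, 14.5 and 12.6 in Tcon, a 13.5-fold difference. Those 2 receptors were the only members more than 10-fold apart. Tnfrsf1b (TNFR2, the receptor for membrane-bound TNF) was 5.69-fold higher in Treg at 391.8 ± 39.4 CPM, and Tnfrsf18 (GITR) 5.67-fold higher at 282 ± 25.5 CPM (SD, n = 4). Cd27, the receptor for CD70, was 1.47-fold higher and Tnfrsf25 (DR3) 1.58-fold higher. Tnfrsf1a, the ubiquitous TNF receptor with a death domain, was the 1 measured receptor lower in every Treg library, at 41.1 ± 2.4 against 55.6 ± 6.06 CPM (SD, n = 4 per group).

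Ligands fell on both sides. Cd40lg, the helper signal to B cells, stood at 129, 145, 96.6 and 138 CPM in vehicle Tcon and at 26.4, 26.9, 30.4 and 26.2 in vehicle Treg, 4.63-fold higher in Tcon. Tnfsf11, which encodes RANKL, went the other way, with 44.8, 37.5, 38.5 and 45.1 CPM in Treg and 11.3, 13.9, 11.9 and 14.9 in Tcon, 3.2-fold higher in Treg. Tnf was 1.54-fold higher in every Treg library, while Ltb (lymphotoxin β) and Tnfsf8 (CD30 ligand) overlapped.

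Inside the cell, 4 of 5 subunits were higher in every vehicle Treg library: Rel (c-REL) 2.18-fold, Nfkb2 2.09-fold, Relb 1.74-fold and Nfkb1 1.68-fold. Rela overlapped at 1.16-fold. Of the IκB family, Bcl3 (2.33-fold), Nfkbia (2.22-fold), Nfkbiz (1.92-fold) and Nfkbie (1.68-fold) were higher in every Treg library, and Nfkbib and Nfkbid overlapped. Among kinases and adaptors 8 of 12 overlapped, including the IKK genes Chuk, Ikbkb and Ikbkg. Traf1, an adaptor induced by NF-κB, was 2.0-fold higher in Treg, followed by Traf2 and Traf3. Malt1, the paracaspase that links the antigen receptor to IKK, was at 154 ± 11.2 CPM in Treg and 218 ± 19 in Tcon (SD, n = 4 per group), lower in every Treg library. Of the brakes, Tnip1, Birc3 and Birc2 were higher in every Treg library (1.88, 1.7 and 1.32-fold), and Tnfaip3 and Cyld overlapped.

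Per length of exon the same 2 genes led in both subsets. In CPM per kilobase of exon, Ltb was highest, at 474 ± 24.2 in Treg and 371 ± 98.1 in Tcon, and Nfkbia was next, at 310 ± 73.7 and 139 ± 32.6 (SD, n = 4), overlapping Cd27 in Tcon. Then came Tnfrsf18 (185 ± 16.8) and Tnfrsf4 (174 ± 20.3) in Treg, whose values overlapped, and Cd27 (109 ± 3.79) and Cd40lg (102 ± 17) in Tcon, which overlapped too. The lowest means were those of Malt1 in Treg (8.54 ± 0.623), overlapping Rel, and of Rel in Tcon (4.67 ± 0.823), overlapping Tnfrsf9.

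With venetoclax more members separated the subsets: 30 (75%) were higher in every Treg library and 4 lower, against 30.2% and 18.3% of all genes. Tnfrsf9 then stood 22.7-fold apart, Tnfrsf4 18.7-fold, Tnfrsf1b 7.04-fold and Tnfrsf18 4.44-fold. Malt1 no longer separated the subsets, with 201, 186, 186 and 199 CPM in Treg and 216, 223, 163 and 228 in Tcon. Ikbkb and Map3k14 joined the members higher in every Tcon library, beside Tnfrsf1a and Cd40lg.

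The comparison in Tcon asks which module genes differ in conventional cells after 14 days of BCL-2 inhibition. Changes are log2 of venetoclax over vehicle, on the log2(normalized count + 1) scale, and a gene passes at a limma adjusted p below 0.05 over all genes of the table. In Tcon 2 receptors and 1 ligand rose: Tnfrsf4, Tnfrsf18 and Tnfsf8. That is 3 of 40 members (7.5%), against 6.91% of all genes (3.92% higher and 2.99% lower), so the share of the module was close to that of the table. No member fell by limma. There 11 of 40 had an unadjusted p below 0.05, the 3 that rose among them, and the share of all genes at that threshold was not counted. With edgeR 2 members fell (3.29% of all genes), with DESeq2 5 did (6.11%), and with limma after upper quartile scaling 3 rose and Cd40lg fell (3.65% and 3.43%). The median change over the 40 members was -0.07, against 0.00 over all genes, with 15 members above 0 and 25 below.

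Tnfrsf4 and Tnfrsf18 lie 9708 bases apart on chromosome 4 (Tnfrsf4 156013595 to 156016613, Entrez 22163; Tnfrsf18 156026322 to 156028894, Entrez 21936; GRCm38.p6). Tnfrsf4 had normalized counts of 188, 256, 218 and 270.1 in the 4 vehicle libraries and of 425, 312, 369 and 326 in the 4 venetoclax libraries. All venetoclax values exceeded all vehicle values, a 1.54-fold rise (log2 0.62, SE 0.14, limma adjusted p = 0.0252). Tnfrsf18, whose product is the co-stimulatory receptor GITR, had 1323, 1112, 1249 and 1033 with vehicle and 1539.5, 1512, 2007 and 1449 with venetoclax. Again the groups did not overlap, with venetoclax replicate 3 well above the other 3 (log2 0.46, SE 0.11, limma adjusted p = 0.0381). An annotated lncRNA, Gm16008, overlaps Tnfrsf18 by 2573 bases, and the strand setting of the counting is not stated.

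Tnfsf8, the ligand of CD30 (63831202 to 63861508 on chromosome 4, Entrez 21949), had 1498, 1840.2, 1369 and 1311 with vehicle and 2411, 2642, 1923 and 2348 with venetoclax. Its groups did not overlap either, and it rose 1.55-fold (log2 0.63, SE 0.12, limma adjusted p = 0.0123). The Tcon libraries of venetoclax replicates 1 and 3 weigh on these calls. Without venetoclax replicate 1 the adjusted p was 0.0896 for Tnfrsf4, 0.0912 for Tnfrsf18 and 0.0513 for Tnfsf8, and without replicate 3 it was 0.0645 for Tnfrsf4 and 0.0655 for Tnfrsf18. Tnfrsf4 was also lost without vehicle replicate 1 (0.069), and Tnfrsf18 without vehicle replicate 1, 2 or 4 (0.0514, 0.0986 and 0.0891) or venetoclax replicate 2 (0.0706). With the level of Ddx3y as a covariate, limma's adjusted p was 0.131, 0.151 and 0.0747 for Tnfrsf4, Tnfrsf18 and Tnfsf8.

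**Figure D2:**
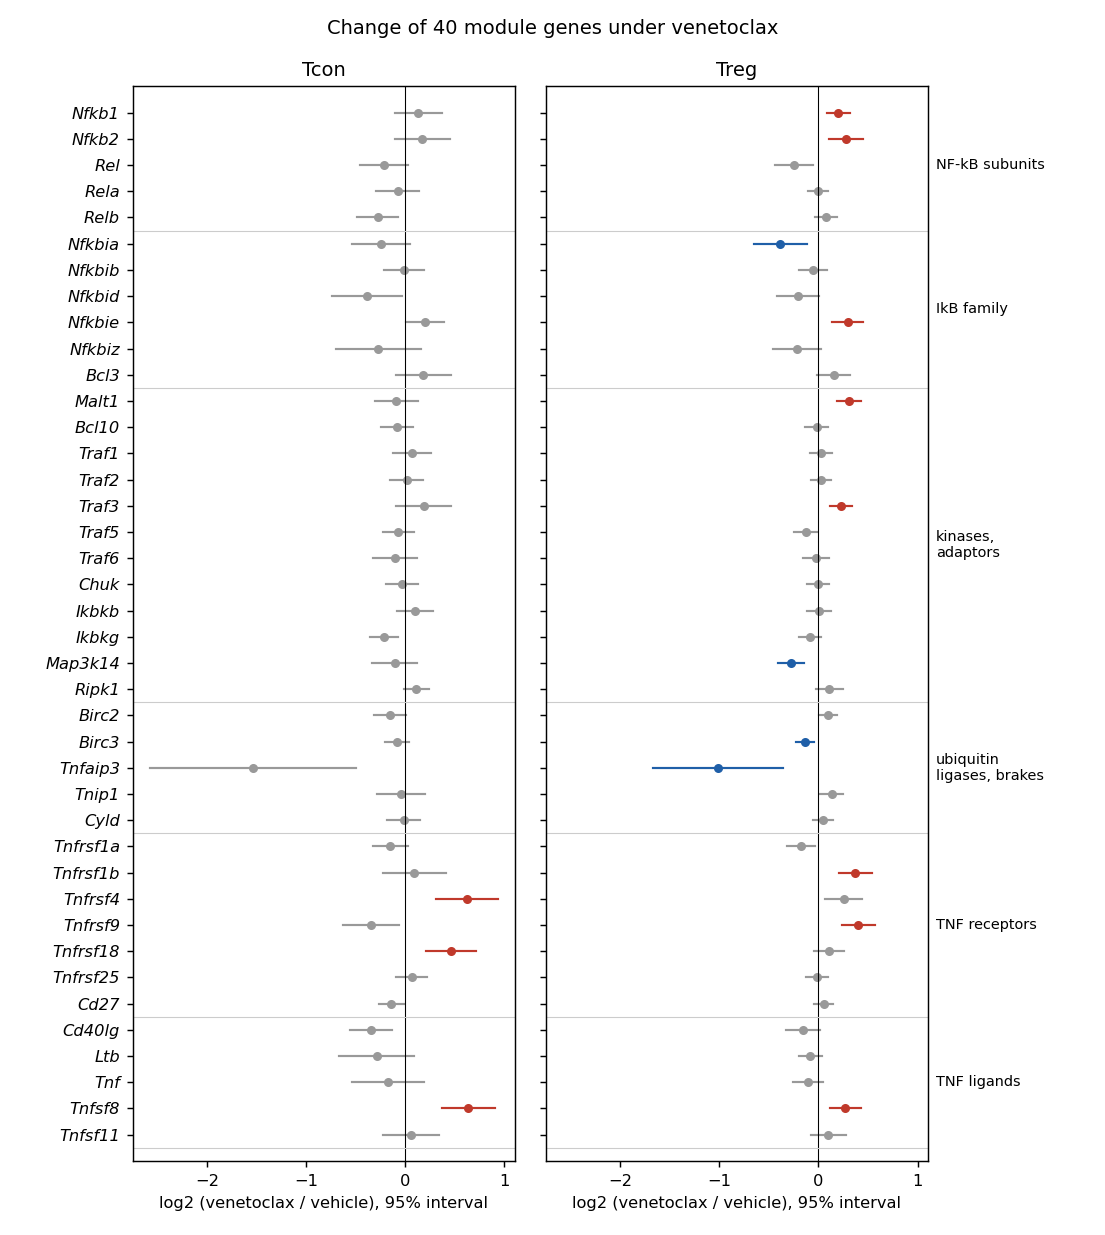
Change of the 40 measured members under venetoclax in Tcon (left) and Treg (right), as log2 of venetoclax over vehicle with the 95% interval of limma's fit, on 1 x axis for both panels. Red marks members that passed higher, blue members that passed lower and grey those that did not pass. In Tcon only 2 receptors and 1 ligand are coloured, while in Treg 12 members of all 6 roles are.

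The other 37 members of Tcon did not pass, and their changes ran from -1.54 to 0.20. Nearest to the threshold was Cd40lg, with 3038, 3323, 2421 and 3204 with vehicle and 2356, 2424, 2237 and 2349 with venetoclax. The venetoclax values sat within 2237 to 2424 and overlapped only vehicle replicate 3 (log2 -0.35, limma adjusted p = 0.0557). It passed with edgeR, with DESeq2 and in the authors' deposited table. Ikbkg, the regulatory subunit of IKK, was lower in every venetoclax library (log2 -0.21, limma adjusted p = 0.0754), a gene that shares 19398 bases with G6pdx. Tnfrsf9 was lower in every venetoclax library too, at 367, 312, 364 and 294 with vehicle and 264, 210.3, 288 and 292 with venetoclax (log2 -0.35, limma adjusted p = 0.14). In all, 4 members had every venetoclax library above every vehicle library and 4 had every one below, against 8.78% and 7.47% of all genes.

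Among subunits in Tcon, the changes were 0.13 for Nfkb1, 0.17 for Nfkb2, -0.22 for Rel, -0.08 for Rela and -0.28 for Relb, with limma adjusted p of at least 0.106. Relb had 875, 969.6, 881 and 1103 with vehicle and 832, 821, 699.6 and 799 with venetoclax, without overlap. The 6 IκB genes ran from -0.39 (Nfkbid) to 0.20 (Nfkbie), and the 12 kinases and adaptors from -0.21 to 0.18.

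In Treg, members of all 6 roles changed with the drug. Of 40 members 12 passed (30%), 8 higher and 4 lower, against 19.6% of all genes (10.7% higher and 8.81% lower; 8.76% and 12.2% after upper quartile scaling). Higher were the subunits Nfkb1 and Nfkb2, the inhibitor Nfkbie, the signal carriers Malt1 and Traf3, the receptors Tnfrsf1b and Tnfrsf9, and the ligand Tnfsf8. Lower were Nfkbia, Map3k14, Birc3 and Tnfaip3. The median over the 40 members was 0.01 and over all genes 0.00, with 21 members above 0 and 19 below. All 4 venetoclax libraries lay above the vehicle libraries for 8 members and below for 3, against 12% and 10.7% of all genes. Malt1, Map3k14, Tnfrsf1b and Tnfrsf9 passed under every alternative tried, while each of the other 8 lost its call under at least 1.

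Subunits first. Nfkb1, the precursor of a DNA-binding subunit (chromosome 3, 135584655 to 135691969, Entrez 18033), had 10415, 10582, 10168 and 11529 with vehicle and 12825, 12263, 11646 and 12307 with venetoclax. It rose 1.15-fold without overlap (log2 0.20, SE 0.05, limma adjusted p = 0.0183). Nfkb2, the precursor of the non-canonical route (chromosome 19, 46300994 to 46312400, Entrez 18034), had 2959.6, 2751, 2733 and 3518 with vehicle and 3865, 3179.9, 3665 and 3717 with venetoclax. Vehicle replicate 4 exceeded venetoclax replicate 2, so the groups overlapped in a 1.21-fold rise (log2 0.27, SE 0.08, limma adjusted p = 0.0292). Nfkb1 lost the call without vehicle replicate 1 or 3 or venetoclax replicate 1 (limma adjusted p of 0.0536, 0.0537 and 0.0575). For Nfkb2 that happened without vehicle replicate 1, 2 or 3 or venetoclax replicate 1, 3 or 4 (limma adjusted p of 0.064 to 0.0955). Rel had 1602, 1808, 1841 and 1964 with vehicle and 1572, 1239, 1686 and 1610.2 with venetoclax, overlapping (log2 -0.25, limma adjusted p = 0.0675). Rela (log2 -0.01) and Relb (0.08) did not pass either.

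The IκB family split. Nfkbie, which encodes IκBε (chromosome 17, 45555700 to 45563169, Entrez 18037), had 1359.6, 1254, 1118 and 1295 with vehicle and 1540.3, 1476, 1740.2 and 1409.5 with venetoclax. It rose 1.23-fold without overlap (log2 0.29, SE 0.07, limma adjusted p = 0.015). Without replicate 3 of both groups it stood at 0.18 (limma adjusted p = 0.106) and without venetoclax replicates 1 and 3 at 0.20 (0.181), and with Ddx3y as a covariate the adjusted p was 0.0588. Nfkbia, which encodes IκBα, the inhibitor that NF-κB induces to end its own response (chromosome 12, 55489409 to 55492647, Entrez 18035), had 9520.2, 11910.5, 10107 and 15746 with vehicle and 9168, 9876, 7906 and 8658 with venetoclax. It fell 1.31-fold with overlap, since vehicle replicate 1 lay below venetoclax replicate 2 (log2 -0.39, SE 0.12, limma adjusted p = 0.0428). It did not pass with DESeq2 (log2 -0.41, adjusted p = 0.0883) or with Ddx3y as a limma covariate (0.0835). Nor did it pass in the authors' deposited table (log2 -0.23, SE 0.20, adjusted p = 0.102). Nfkbib, Nfkbid, Nfkbiz and Bcl3 did not pass, with changes from -0.21 to 0.15.

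Among the 12 kinases and adaptors 3 passed. Malt1 (chromosome 18, Entrez 240354) had 3391, 3898, 3491 and 3829 with vehicle and 4774, 4371, 4356 and 4619 with venetoclax, a 1.24-fold rise without overlap (log2 0.31, SE 0.06, limma adjusted p = 0.00229). Traf3, the adaptor that brings NIK to its degradation (chromosome 12, 111166321 to 111267155, Entrez 22031), had 3331, 3666, 3287 and 3418 with vehicle and 4196, 3844, 4173 and 3844 with venetoclax. It rose 1.17-fold without overlap (log2 0.23, SE 0.05, limma adjusted p = 0.00868). Map3k14, which encodes NIK itself (chromosome 11, 103219764 to 103267401, Entrez 53859), went the other way, from 1869, 1876, 1841 and 2022 with vehicle to 1716, 1644, 1439 and 1496 with venetoclax. It fell 1.21-fold without overlap (log2 -0.28, SE 0.06, limma adjusted p = 0.00808). Traf3 lost the call without replicate 3 of both groups (limma adjusted p = 0.0731) and without venetoclax replicates 1 and 3 (0.143). Annotated lncRNAs overlap Map3k14 (Gm34823, 18998 bases) and Traf3 (4930595D18Rik, 18171 bases). Bcl10, Traf1, Traf2, Traf5, Traf6, Chuk, Ikbkb, Ikbkg and Ripk1 did not pass, with changes between -0.13 and 0.11.

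**Figure D3:**
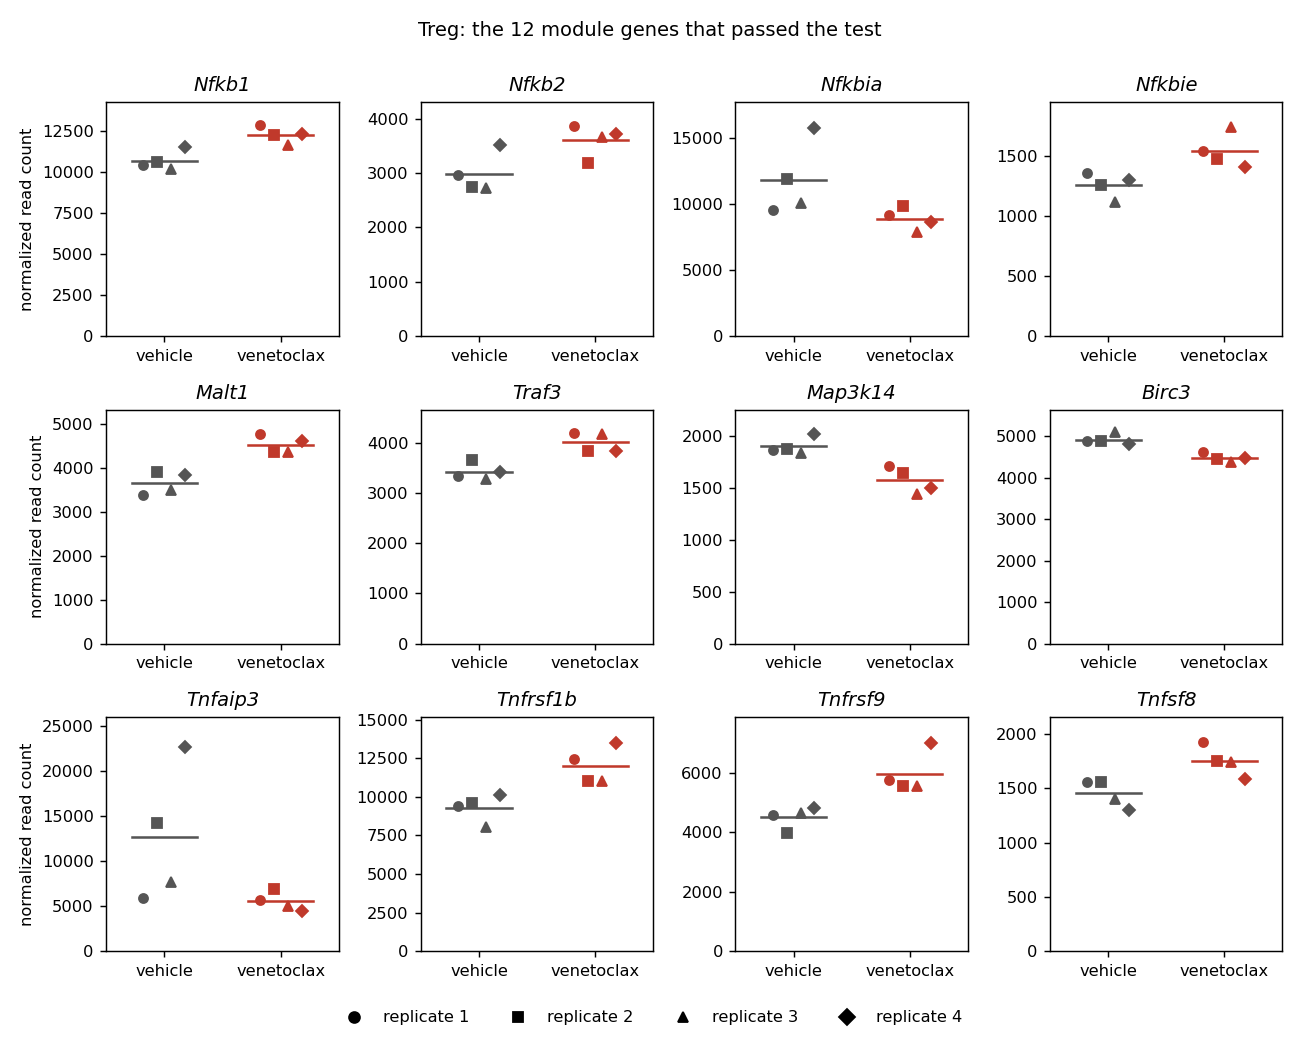
Normalized read counts of the 12 members that passed in Treg, 1 panel per gene with its own y axis from 0, vehicle in grey and venetoclax in red. Each point is 1 library, its shape gives the replicate, and the bar is the mean of 4. In 9 panels the groups do not overlap; Nfkb2, Nfkbia and Tnfaip3 are the exceptions.

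Of the ubiquitin ligases and brakes, Birc3 and Tnfaip3 fell. Birc3, a ligase of the TRAF complexes (chromosome 9, 7847468 to 7873205, Entrez 11796), had 4876, 4869.7, 5091 and 4814 with vehicle and 4604, 4456, 4383 and 4478 with venetoclax. The fall was 1.1-fold without overlap (log2 -0.13, SE 0.04, limma adjusted p = 0.0431). It lost the call when any library other than vehicle replicate 4 was left out (limma adjusted p of 0.0518 to 0.115), and with Ddx3y as a covariate (0.0976). Its neighbour Birc2, Tnip1 and Cyld did not pass, with changes of 0.10, 0.13 and 0.05.

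Tnfaip3, which encodes the deubiquitinase A20 (chromosome 10, 19000910 to 19015410, Entrez 21929), had the widest spread of the module and, by limma with all libraries, its largest log2 difference in both subsets. In Treg it had 5944, 14199, 7701 and 22732 with vehicle and 5681, 6943, 5049 and 4460.0 with venetoclax (log2 -1.01, SE 0.31, limma adjusted p = 0.033). The authors' deposited table gives a log2 of -0.12 there (SE 0.21, adjusted p = 0.0454), below the size of its 0.37 for Tnfrsf9. That log2 is smaller than its SE, so it may not be on limma's scale, and the authors' test is not given. DESeq2 gave -1.19 in Treg (adjusted p = 0.0412). In Tcon Tnfaip3 had 5444, 12862, 2841 and 18039.8 with vehicle and 2965, 3225, 2099 and 2521 with venetoclax (log2 -1.54, limma adjusted p = 0.078). It passed as lower in Tcon with edgeR, with DESeq2 and in the authors' deposited table (log2 -1.48, adjusted p = 0.0078). By limma it passed without replicate 3 of both groups, but not after upper quartile scaling or with Ddx3y as a covariate. Vehicle replicates 2 and 4 were the highest libraries in both subsets, while vehicle replicate 1 in Treg and vehicle replicate 3 in Tcon lay inside the venetoclax range.

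The summed level of 30 immediate early genes, which respond first when a cell is stimulated, had the same order among vehicle libraries. It was 4595, 7211, 4933 and 8747 CPM in vehicle Treg and 3384, 4253, 2576 and 3192 in venetoclax Treg. In Tcon it was 5665, 7475, 3014 and 8602 CPM with vehicle and 2971, 3672, 1841 and 2811 with venetoclax. Of these 30 genes, 18 fell and 1 rose in Treg, against 8.81% and 10.7% of all genes. In Tcon 10 fell, against 2.99% of all genes. Without vehicle replicates 2 and 4, an alternative chosen after seeing the data, Tnfaip3 in Treg stood at log2 -0.31 (limma adjusted p = 0.134), smaller than the 0.46 of Tnfrsf1b, and Nfkbia at -0.14 (0.2). With these libraries left out 10 members rose and 2 fell in Treg, against 12.3% and 10.5% of all genes. Leaving out only vehicle replicate 4 gave Tnfaip3 -0.67 (limma adjusted p = 0.0505) and Nfkbia -0.24 (0.0646), and leaving out only vehicle replicate 2 gave -0.89 (0.0753) and -0.37 (0.0749). Without venetoclax replicate 1, 3 or 4 neither passed (limma adjusted p of 0.0694 to 0.0796 for Tnfaip3 and 0.0851 to 0.109 for Nfkbia). The part of the immediate early level in the fall of Tnfaip3 and Nfkbia was not tested further.

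**Figure D4:**
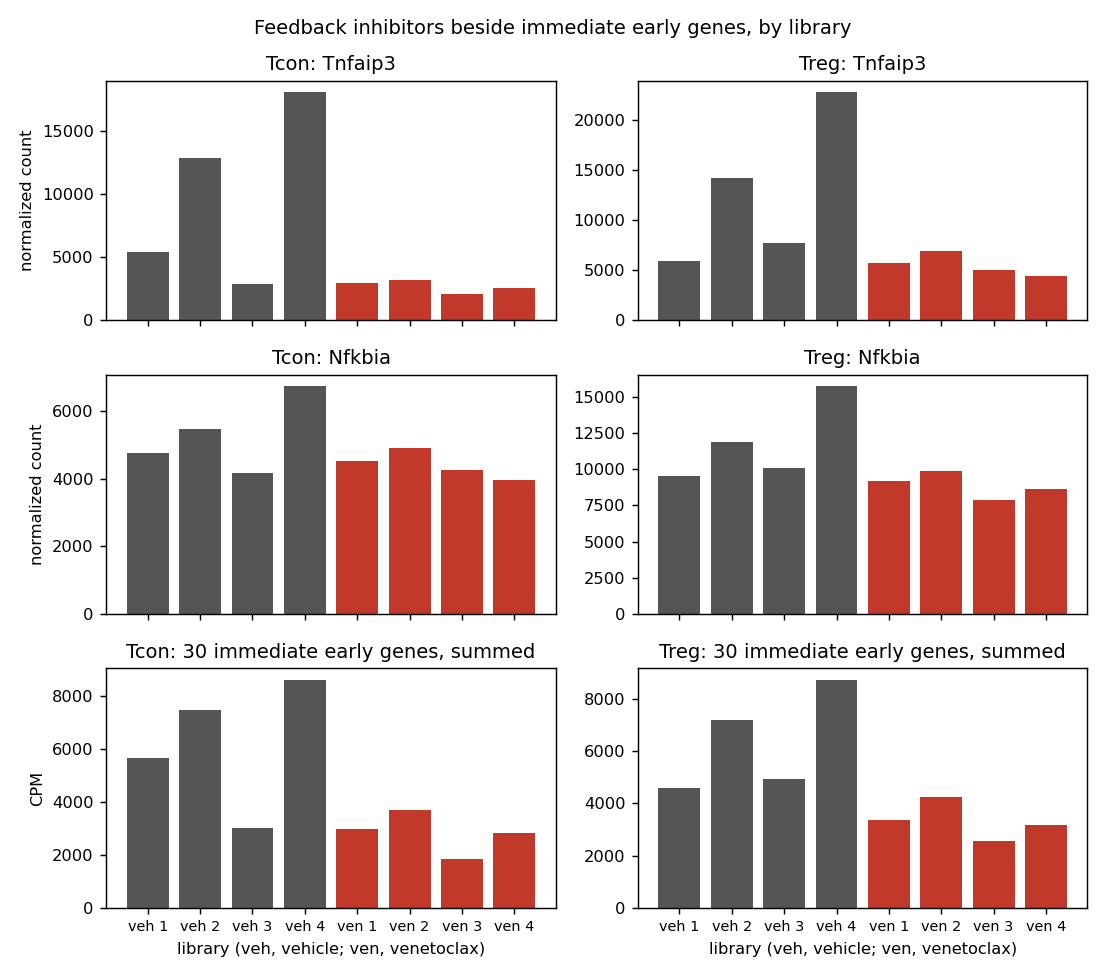
Normalized counts of Tnfaip3 (top) and Nfkbia (middle) and the summed CPM of 30 immediate early genes (bottom) in each library, Tcon left and Treg right, vehicle grey and venetoclax red. Vehicle replicates 2 and 4 have the tallest bars for Tnfaip3 and the immediate early sum in both subsets.

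Among receptors in Treg, 2 of the 7 measured rose. Tnfrsf9 (chromosome 4, 150920155 to 150946104, Entrez 21942) had 4585, 3982, 4659 and 4809.6 with vehicle and 5771, 5539.6, 5562 and 6999.6 with venetoclax. It rose 1.32-fold without overlap, with venetoclax replicate 4 above the other 3 (log2 0.40, SE 0.08, limma adjusted p = 0.00369). Tnfrsf1b (chromosome 4, 145212368 to 145246870, Entrez 21938) had 9410.2, 9580.2, 8068 and 10095 with vehicle and 12477, 11047, 11037 and 13510.4 with venetoclax, a 1.29-fold rise without overlap (log2 0.37, SE 0.08, limma adjusted p = 0.00568). Tnfrsf4 had 6038, 4597, 5967 and 5898 with vehicle and 6355, 5982, 7227 and 7177 with venetoclax, overlapping (log2 0.25, limma adjusted p = 0.0545). It passed as higher with DESeq2, with Ddx3y as a limma covariate and in the authors' deposited table (log2 0.20, adjusted p = 0.0322). Tnfrsf18 had 7215, 5820.5, 7119 and 6595 with vehicle and 6738, 6775, 7656 and 7586 with venetoclax (log2 0.11, limma adjusted p = 0.309). Tnfrsf1a (log2 -0.18), Tnfrsf25 (-0.01) and Cd27 (0.05) did not pass.

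Among the 5 ligands in Treg only Tnfsf8 passed, with 1554, 1559, 1401 and 1298 with vehicle and 1926, 1750.2, 1741 and 1589 with venetoclax. It rose 1.21-fold without overlap (log2 0.27, SE 0.07, limma adjusted p = 0.0191). By limma with all libraries it is the 1 member that passed as higher in both subsets. It lost the call without vehicle replicate 3 (limma adjusted p = 0.0533) or venetoclax replicate 1 (0.0675), and with Ddx3y as a covariate (0.0919). Cd40lg, Ltb, Tnf and Tnfsf11 did not pass, with changes between -0.16 and 0.10.

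Whether the drug's effect differed between the subsets was tested as an interaction over the 16 libraries. Of the 40 members 1 passed, Tnfrsf9 (2.5%, against 1.3% of all genes). Its change was 0.40 in Treg and -0.35 in Tcon, a difference of 0.75 (SE 0.15, 95% interval 0.42 to 1.07, limma adjusted p = 0.0214). In CPM it stood at 244, 235, 238 and 302 in venetoclax Treg against 195, 169.6, 193 and 202 with vehicle, and at 11.2, 8.97, 12 and 12.6 against 15.6, 13.6, 14.5 and 12.6 in Tcon. The call did not hold without venetoclax replicates 1 and 3 (difference 0.89, adjusted p = 0.188) or without vehicle replicates 2 and 4 (0.84, adjusted p = 0.0736).

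With the replicate code as a block (8 codes, each pairing 1 Tcon with 1 Treg library), 4 of 40 members passed, against 3.61% of all genes. All 4 had a change that was higher in Treg than in Tcon, a direction that held 1.27% of all genes. Tnfrsf9 was 1 of the 4 members (limma adjusted p = 0.00407). The others were Malt1 (0.31 in Treg and -0.09 in Tcon; difference 0.40, adjusted p = 0.131 without and 0.0236 with the block), Relb (0.08 and -0.28; 0.35, adjusted p = 0.143 and 0.0361) and Birc2 (0.10 and -0.15; 0.25, adjusted p = 0.165 and 0.0499). For the members that rose in Tcon the difference did not pass: it was -0.37 for Tnfrsf4 (95% interval -0.73 to -0.01), -0.35 for Tnfrsf18 (-0.66 to -0.05) and -0.36 for Tnfsf8 (-0.68 to -0.04), with limma adjusted p of 0.376 to 0.48. Over the 40 members the median difference was 0.06, against 0.00 over all genes.

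**Figure D5:**
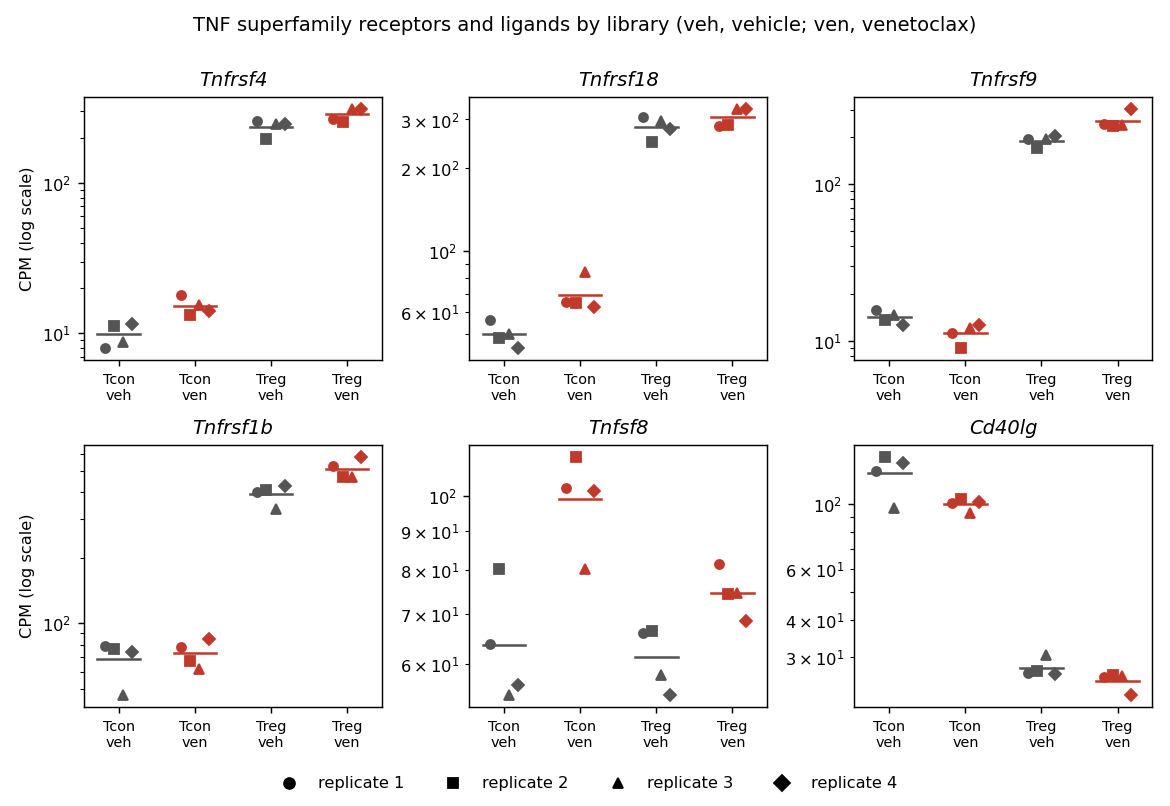
CPM of 4 receptors and 2 ligands in each library of the 4 groups on log axes that differ between panels, with vehicle in grey and venetoclax in red. Shapes give the replicate and bars the mean of 4. Tnfrsf9 is higher with venetoclax in Treg and lower in Tcon, where its fall did not pass. Cd40lg is the 1 gene shown whose Tcon libraries all lie above the Treg libraries.

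Other genes of the system were taken from 4 lists, whose counts stand against 3.92% of all genes higher and 2.99% lower in Tcon and against 10.7% and 8.81% in Treg. Of 9 other receptors measured in Tcon, Relt rose (log2 0.36) and Tnfrsf12a, which encodes the TWEAK receptor, fell (-1.14, from 171 ± 56.1 to 74.9 ± 14.7, SD, n = 4 per group). In Treg Tnfrsf8, which encodes CD30, the receptor for the Tnfsf8 product, rose (0.48, from 230.4 ± 21.4 to 324 ± 45.8, SD, n = 4 per group). Tnfrsf14 (HVEM) rose as well (0.33) and Tnfrsf12a fell (-0.74), again of 9 measured. The medians of the 2 lists were 0.07 and 0.16.

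Of other ligands, Tnfsf14 (LIGHT), which binds HVEM, rose in Tcon (0.64, 1 of 6 measured) and in Treg (0.65). Tnfsf10 (TRAIL) and Tnfsf15 (TL1A, the ligand of Tnfrsf25) rose in Treg too (0.45 and 0.70), and Lta fell (-0.34), so that 4 of 7 passed there. Of other signalling genes, 4 of 39 passed in Tcon (Ubash3a 0.33, Irak4 0.34, Casp8 0.23 and Tab1 -0.41) and 9 of 40 in Treg, 3 higher and 6 lower. These shares, 10.3% and 22.5%, compare with 6.91% and 19.6% of all genes, so the Treg share was close to that of the table. Leading these in Treg were N4bp1 (0.49), Map3k8 (-0.53), Ubash3a (0.28) and Tab1 (-0.42). Tab1, a partner of the kinase TAK1, fell in both subsets, from 801 ± 56.3 to 602 ± 32.3 in Tcon and from 644 ± 59.2 to 481 ± 22 in Treg (SD, n = 4 per group).

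Of the textbook NF-κB target genes, 8 of 22 rose and 1 fell in Treg (40.9% in all, against 19.6% of all genes), with a median of 0.13. Leading were Irf4 (0.61), a factor of effector Treg cells, Ccnd2 (0.60), Sdc4 (0.44) and Ebi3 (0.55), a cytokine subunit, and Gadd45b fell (-0.90). In Tcon 3 of 24 rose and 1 fell (16.7%, against 6.91%), with a median of 0.16: Ccnd2 (1.14, from 11180 ± 1410 to 24500 ± 2220, SD, n = 4 per group), Il2ra (0.98), Bcl2l1 (0.41) and Gadd45b (-1.42). Gadd45b also stands in the immediate early list, and Ccnd2 promotes the cell cycle. The difference between subsets passed for Tnfsf10 (0.45 in Treg and -0.16 in Tcon), Casp8 (-0.21 and 0.23) and Il2ra (0.02 and 0.98), 1 gene each of the ligand, signalling and target lists.

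Replicate spread was wider with vehicle. The coefficient of variation was larger among vehicle than among venetoclax libraries for 31 of 40 members in Tcon (77.5%, against 72.3% of genes with a mean of at least 50) and for 29 in Treg (72.5%, against 59%). Tnfaip3 had the largest, 70.9% in vehicle Tcon and 60.1% in vehicle Treg. Vehicle replicate 4 was the highest of its group for 22 members in Tcon and 21 in Treg, against 26.7% and 26.9% of all genes. In Tcon vehicle replicate 3 was the lowest for 25 members (37.3% of all genes) and venetoclax replicate 3 for 22 (34.2%). Without replicate 3 of both groups 8 members passed in Tcon (12.9% of all genes), Nfkbid, Map3k14, Tnfaip3, Tnfrsf1a and Cd40lg lower besides the 3 that rose.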

How the data were processed

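Members and gene lists were chosen with earlier results of these data known. The submitters' processing notes name HISAT2, SAMtools and the build mm10. Not given in the sources used here are the read counter, its strand setting and any gene filter.

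The deposited library columns hold normalized signal per gene. From their values, the authors divided each library's reads by 1 size factor: within a tolerance of 0.01 all values were whole multiples of a step, which gave back the reads. The authors also deposited log2 fold changes with standard errors, unadjusted p-values and adjusted p-values, by a test that is not given. After exact repeats were removed (40 of 11211 lines in Tcon, 43 of 11110 in Treg), 11171 and 11067 genes were left. Spreadsheet dates were turned back to 18 symbols in Treg. Coordinates are those of RefSeq on GRCm38.p6.

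Per subset, limma 3.58.1 (R 4.3.3; trended empirical Bayes) compared log2(normalized count + 1) of 4 venetoclax with 4 vehicle libraries, with Benjamini-Hochberg adjustment over all genes and a threshold of 0.05. The script was tested on simulated data. Differences between subsets were tested as the interaction over 16 libraries for 10774 shared genes. CPM were computed from recovered reads over these genes, and levels per kilobase with GENCODE exon lengths. The design had named count tests first, but the tables hold normalized values, so edgeR 4.0.16 and DESeq2 1.42.0 on recovered reads became alternatives. Others were pseudocounts of 0.5 and 10, a mean of at least 50, upper quartile scaling, a block (the replicate number within a subset, the replicate code for the difference), Ddx3y as a covariate, leaving out libraries, and the authors' adjusted p. Deviations of Tcon and Treg libraries of 1 code correlated at 0.2 to 0.551, every pair above 0.1, so codes were taken to pair the subsets. All members are accounted for by role. Library values are given for those that passed, and lists name up to 4 genes of smallest p. Depth was 21335006 to 25027038 reads per library.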

Additional observations from a re-analysis of the deposited data

Results flagged for a closer look

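In 18 of 160 groups of 4 libraries (11.2%), the highest or lowest library stood apart from the other 3 by more than Dixon's critical share of the group's range. Chance gives about 1 in 20 for a single group, but these groups share the same 16 libraries and are not independent. The share over all genes was not counted. In Tcon, vehicle replicate 3 held 6 of the 18, and it was the lowest of its group for 37.3% and the highest for 34.4% of all genes. It was lowest for Nfkbie (637.5 normalized counts), Bcl3 (372.6), Traf6 (1832), Birc3 (2776) and Tnfrsf1a (1166), and highest for Ltb (19629, where the others ran from 10651 to 11919). Venetoclax replicate 3 of Tcon was lowest for Malt1 (3915) and highest for Tnfrsf18 (2007), and venetoclax replicate 2 was highest for Traf2 (1709.9).

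In vehicle Treg, replicate 4 was highest for Rela (3545) and lowest for Ikbkg (2319), and replicate 2 was lowest for Nfkbib (769.8) and Tnfrsf4 (4597). Replicate 1 was lowest for Birc2 (3961), and replicate 3 highest for Cd40lg (733). In venetoclax Treg, replicate 4 was lowest for Relb (1732) and Cd40lg (514) and highest for Tnfrsf9 (6999.6, where the others ran from 5539.6 to 5771).

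The effect of venetoclax on Tnfrsf9 differed between the subsets by 0.75 on the log2 scale (Treg minus Tcon, limma interaction, adjusted p = 0.0214). All 4 Treg libraries of venetoclax mice lay above those of vehicle mice, and all 4 Tcon libraries lay below. In Tcon the nearest libraries almost met, at 292.3 normalized counts with venetoclax and 294 with vehicle. The Tcon fall did not pass (limma adjusted p = 0.14). Nor did the difference without venetoclax replicates 1 and 3 (limma adjusted p = 0.188) or without vehicle replicates 2 and 4 (0.0736).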

How the results depend on the processing

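The 14 members that passed in either subset, and Tnfrsf9 in the difference, kept their direction under every alternative run: of 327 single-gene alternatives 255 kept the call, 72 lost it and 0 reversed. In Tcon the count of 3 members, with 6.91% of all genes called, became 5 with edgeR (7.04%) and 8 with DESeq2 (12.2%). It became 8 without replicate 3 of both groups (12.9%) and 7 by the authors' deposited adjusted p (11.3%). With limma it became 0 without venetoclax replicates 1 and 3 (7 at an unadjusted p below 0.05), where 1.04% of all genes were called. It was also 0 with Ddx3y as a covariate (8 unadjusted), where 2.92% of all genes were called. Shares of all genes at an unadjusted p were not counted, here or below. Leaving out 1 library gave 0 (without venetoclax replicate 1, 8 unadjusted) to 7 (without vehicle replicate 3), with 2.74% and 11.1% of all genes called. It gave 1 without vehicle replicate 1 (4.13% of all genes) or venetoclax replicate 3 (4.9%). In Treg the count of 12 became 5 without replicate 3 of both groups and 4 without venetoclax replicates 1 and 3, while the share of all genes called went from 19.6% to 9.29% and 5.55%. With 1 library left out, the Treg count ran from 6 (without venetoclax replicate 1, 12% of all genes called) to 13 (without venetoclax replicate 2, 16.5%). For the difference between subsets, the count of 1 (1.3% of all genes) became 5 with DESeq2 (2.74%). It became 0 without venetoclax replicates 1 and 3 (5 unadjusted), where 0.0371% of all genes were called. It was also 0 without vehicle replicates 2 and 4 (7 unadjusted, a choice made after seeing the data), with 0.241% of all genes called. With 1 library left out it ran from 1 to 2, the 2 being without Tcon vehicle replicate 1 (1.14% of all genes). The 22 members higher in every vehicle Treg library were 22 to 24 with 1 library left out, against 25.4% to 28.3% of all genes. Leaving out a library cannot test the scaling between the subsets. After upper quartile scaling 21.5% of all genes were higher in every vehicle Treg library and 15.6% lower, against 24.5% and 12% in CPM. The count of members under that scaling is not given here. Same-numbered vehicle and venetoclax libraries were not shown to be paired (correlations of 0.0735 to 0.43 in Tcon and -0.015 to 0.276 in Treg). With that replicate number as a block the count was 10 in Tcon (3 higher and 7 lower, with 16.8% of all genes called) and 13 in Treg (9 and 4, with 22.3%). For the difference, with the replicate code as the block, it was 4, with 3.61% of all genes called. The smallest count of a member in any library was 191 reads.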
